A study of Mus musculus with 16 samples.

Results

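The genes described here are the 3 receptors of the insulin receptor family, Insrr, Insr and Igf1r, taken from the table of RPKM (read numbers scaled to the length of the gene and the size of the library) by their Ensembl gene IDs. All 3 were present among 13430 genes, in each of 16 kidney libraries, and all passed the filter for testing. Each library came from 1 female C57BL/6 mouse aged 2 to 3 months, and RNA came from a horizontal cut through the mid-kidney, 3 mm thick. The mice were wild type or IRR (-/-), labelled as knockouts of the insulin receptor-related receptor encoded by Insrr, and drank plain water or water with 250 mM sodium bicarbonate (pH 8.5) for 7 days. This made 4 groups of 4 mice, wild type on water, wild type on bicarbonate, knockout on water and knockout on bicarbonate, and every mouse fasted for 12 h beforehand, with its drink. The labels do not state which part of Insrr was deleted, nor litters or batches, so a batch and the genotype cannot be told apart.

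The insulin receptor family consists of receptor tyrosine kinases that are cut from a proreceptor and held as dimers on the cell surface. The insulin receptor (Insr) binds insulin and the type 1 insulin-like growth factor receptor (Igf1r) binds IGF1 and IGF2, and both signal through docking proteins to phosphoinositide 3-kinase and AKT. The insulin receptor-related receptor, encoded by Insrr, binds neither hormone and is activated by alkaline fluid outside the cell. In the kidney it is known from intercalated cells of the collecting duct, among them the type B cells that secrete bicarbonate.

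Insrr (ENSMUSG00000005640) lies on the forward strand of chromosome 3 at 87796951 to 87816101 in GRCm38, where its longest transcript has 22 exons and 5102 nt. Insr (ENSMUSG00000005534) lies on the reverse strand of chromosome 8 at 3122061 to 3279617, with a longest transcript of 9355 nt in 21 exons. Igf1r (ENSMUSG00000005533) lies on the forward strand of chromosome 7 at 67952827 to 68233668, with a longest transcript of 11409 nt in 21 exons. These positions are from GENCODE M21. In an alignment of the coding sequences, Insrr was 64.4% identical to Insr and 66.5% to Igf1r over aligned bases, and Insr was 68.1% identical to Igf1r. The longest run of identical coding bases was 29 nt between Insrr and Insr, 23 nt between Insrr and Igf1r and 19 nt between Insr and Igf1r.

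No stretch of 31 bases in any annotated Insrr transcript recurred in a transcript of Insr or Igf1r on either strand (0 of 5703 distinct Insrr stretches). Insr and Igf1r shared 2 such stretches on the same strand.

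The 3 receptors kept 1 order of levels in all 16 libraries, with Igf1r above Insr above Insrr. RPKM is a value per length, so the genes can be set side by side. Over all libraries Igf1r lay between 22.9 and 32.8 RPKM, Insr between 12.9 and 19.0 RPKM and Insrr between 3.31 and 6.73 RPKM. Within a library, Igf1r ranked between the 74.3rd and the 81.7th percentile of all genes in the table, Insr between the 59.8th and the 69.7th, and Insrr between the 28.8th and the 43.3rd. No library of a lower receptor reached the range of the next one.

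**Figure D1:**
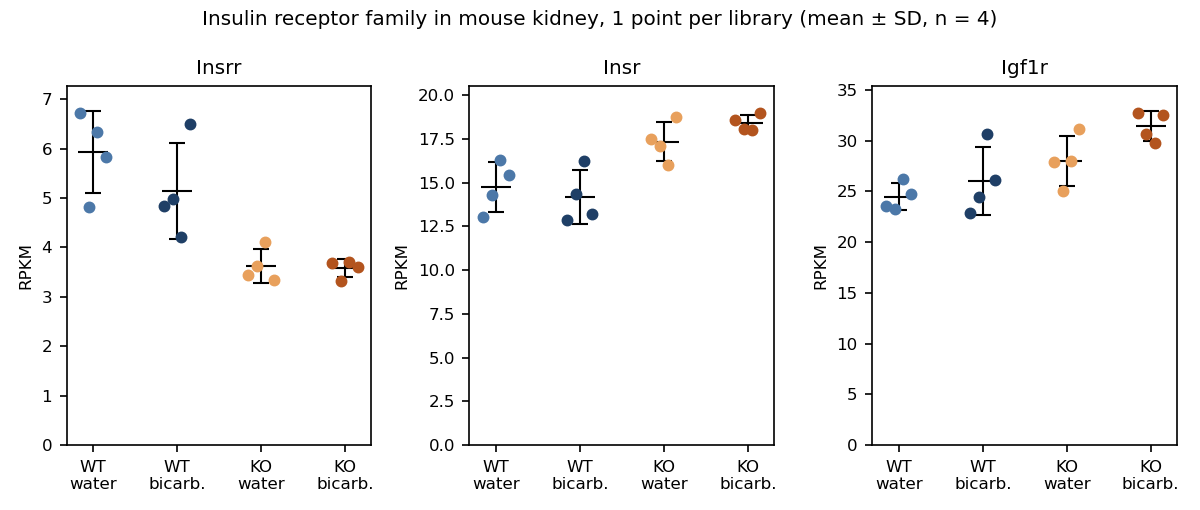
RPKM of Insrr, Insr and Igf1r (vertical axes, each starting at 0) in the 4 groups, with 1 point per library and bars for the mean ± SD of 4 libraries. Insrr is lower in the knockout (KO) libraries than in all wild-type (WT) libraries, while Insr and Igf1r lie higher in the knockout with some overlap.

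Across the libraries, 3 facts of the whole table touch these values. The median RPKM lay between 8.44 and 8.92 over all libraries. On water it was 8.66 to 8.91 in wild type and 8.44 to 8.53 in the knockout, without overlap. On bicarbonate it was 8.66 to 8.92 and 8.62 to 8.78, with overlap. The 13 mitochondrially encoded genes made up between 69.6% and 74.2% of all RPKM in the wild-type libraries and between 82.6% and 84.9% in the knockout ones, a shift that follows the genotype and whose part in the receptor values was not tested. In wild type on bicarbonate, replicate 3 stood apart in 1 of 6 proximal tubule markers, Kap, at 742.5 RPKM against 5998 to 21500 RPKM in the other 15 libraries. The other 5 markers summed to 1510 RPKM in it, inside the range of 1327 to 1933 RPKM of the other libraries. Of these 5, Lrp2 was at its lowest in this library, at 167.8 RPKM. Among genes of other lists, the endothelial marker Emcn was lowest there too, at 59.2 RPKM against 75.5 RPKM or more. Igfbp5, for a binding protein of IGFs, was at 62.3 RPKM against 109.3 RPKM or more in the other libraries. Several intercalated cell markers were at their highest of all libraries there: Foxi1 (21.6 RPKM), Atp6v1b1 (52.1), Atp6v0d2 (32.9), Atp6v1g3 (42.9) and Slc4a1 (30.7, against 20.6 or less). Car2 and the type A markers Kit, Aqp6, Dmrt2 and Adgrf5 were not. Slc26a4, of type B cells, was the lowest of the wild-type libraries, at 30.4 RPKM.

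Insrr, the receptor that was knocked out, was still read in every knockout library. In wild type on water it was 6.73, 4.82, 6.34 and 5.83 RPKM in replicates 1 to 4, and in wild type on bicarbonate 4.85, 4.98, 4.20 and 6.50 RPKM. In the knockout on water it was 3.43, 3.62, 4.11 and 3.338 RPKM, and in the knockout on bicarbonate 3.68, 3.31, 3.71 and 3.61 RPKM. The highest knockout library lay just under the lowest wild-type library, so the genotypes did not overlap over 8 against 8 libraries, which held for 9.15% of all 12943 genes tested (4.54% with the knockout lower). Groups of 4 did not overlap on water for 23.8% of genes and on bicarbonate for 22.8%. The wild-type libraries were also more spread out, with an SD of 0.937 RPKM over 8 libraries against 0.255 RPKM in the knockout.

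The knockout held 0.664 times the wild-type level of Insrr when both drinks were averaged, with a 95% interval from 0.578 to 0.763 (limma log2 difference -0.59 ± 0.09 SE, adjusted p = 2.08e-04, lower in 8 of 8 knockout libraries). Levels on each drink were 0.620 times wild type on water (adjusted p = 0.00180) and 0.711 times on bicarbonate (adjusted p = 0.0182). Log2 differences here and below are of log2(RPKM + 0.1), and p was adjusted by the Benjamini-Hochberg method over all 12943 genes, with a threshold of 0.05 in limma. Genes lower in the knockout past this threshold made up 11.8% of those tested on water, 9.36% on bicarbonate and 18.5% for the average of both drinks, where 33.7% were called in either direction. On bicarbonate the Insrr call was lost without wild-type replicate 4 (log2 difference -0.37, adjusted p = 0.0532) and without knockout replicate 2 (-0.46, adjusted p = 0.0520). RPKM sums reads over the whole gene, so the remaining level does not show which exons it comes from, nor whether a receptor protein is made.

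Insr, the insulin receptor, was higher in the knockout. It was 13.0, 14.3, 16.3 and 15.4 RPKM in wild type on water and 17.5, 17.1, 16.0 and 18.8 RPKM in the knockout on water. On bicarbonate it was 12.9, 14.4, 16.3 and 13.2 RPKM in wild type and 18.6, 18.1, 18.0 and 19.0 RPKM in the knockout. On bicarbonate the groups did not overlap, as for 22.8% of all genes, while on water knockout replicate 3 lay inside the wild-type range. Of the 8 knockout libraries, 7 were above the highest wild-type library.

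The mean of Insr on bicarbonate was 14.2 ± 1.53 RPKM in wild type and 18.4 ± 0.468 RPKM in the knockout (SD, n = 4 each). It rose by 0.38 ± 0.09 on the log2 scale (SE, limma adjusted p = 0.00695). On water the means were 14.8 ± 1.42 and 17.3 ± 1.13 RPKM (SD, n = 4 each), with a log2 difference of 0.23 ± 0.09 that did not pass (adjusted p = 0.0679). Averaged over both drinks, Insr was 1.24 times as high in the knockout, with a 95% interval from 1.13 to 1.355 (log2 difference 0.31 ± 0.06, adjusted p = 0.00127). Genes called higher made up 9.03% of those tested on bicarbonate, 10.1% on water and 15.1% for the average. The value on water passed when the libraries were rescaled, at 0.27 with quantile normalization (adjusted p = 0.0336) and 0.27 with median-of-ratios scaling (adjusted p = 0.0361). It also passed without wild-type water replicate 3, at 0.28 (adjusted p = 0.0428), but with no other library left out (limma adjusted p up to 0.182). Nor did it pass with array weights (adjusted p = 0.0806) or when fitted on the water groups alone (adjusted p = 0.116).

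Igf1r, the receptor for IGF1 and IGF2, was higher in the knockout by a smaller factor. It was 23.6, 23.3, 26.3 and 24.8 RPKM in wild type on water against 27.9, 25.01, 28.0 and 31.1 RPKM in the knockout on water. On bicarbonate it was 22.9, 24.4, 30.6 and 26.2 RPKM in wild type against 32.8, 30.6, 29.7 and 32.6 RPKM in the knockout. The groups overlapped on both drinks, by knockout replicate 2 on water and by the high wild-type replicate 3 on bicarbonate. On each drink 3 of 4 knockout libraries were above every wild-type library of the same drink. Of the 8 knockout libraries, 4 were above the highest of all 8 wild-type libraries.

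Averaged over both drinks, Igf1r was 1.18 times as high in the knockout, with a 95% interval from 1.07 to 1.29 (limma log2 difference 0.23 ± 0.06 SE, adjusted p = 0.00937). This call held with each of the 16 libraries left out in turn, at log2 differences from 0.20 to 0.28. On bicarbonate alone the log2 difference was 0.28 ± 0.09 (adjusted p = 0.0406) and on water 0.19 ± 0.09 (adjusted p = 0.142). The call on bicarbonate was not a firm one: it was lost with 7 of the 8 libraries of that comparison left out in turn, all except wild-type replicate 3, at adjusted p up to 0.121. It was also lost with the trend with transcript length and GC content removed, at 0.21 (adjusted p = 0.135).

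Without replicate 3 of wild type on bicarbonate, the genotype differences on bicarbonate were larger for all 3 receptors. They were -0.58 for Insrr, 0.45 for Insr (adjusted p = 0.00228) and 0.36 for Igf1r (adjusted p = 0.00717). That library had the lowest Insrr and the highest Insr and Igf1r of its group. The genotype averages of Insr and Igf1r also compare with a median log2 difference of -0.03 over all genes tested and 0.00 over the 2901 genes with a longest transcript above 5000 nt, as all 3 receptors have. By drink, the median of those 2901 genes was -0.04 on water and 0.06 on bicarbonate, against -0.05 and -0.02 over all genes.

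**Figure D2:**
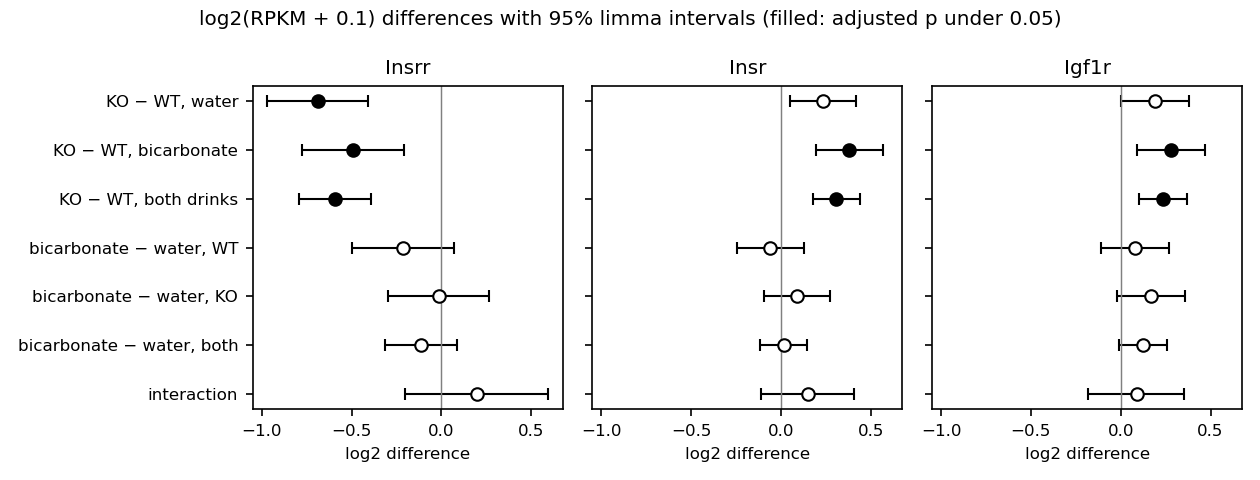
Log2 differences (horizontal axes, log2(RPKM + 0.1)) of Insrr, Insr and Igf1r for each comparison, with 95% intervals from limma and filled points where the adjusted p is under 0.05. Averaged over both drinks, Insrr lies at -0.59, Insr at 0.31 and Igf1r at 0.23, and every comparison of bicarbonate with water has an interval that includes 0.

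The alkali load itself gave no call for any of the 3 receptors. In wild type, limma log2 differences of bicarbonate minus water were -0.21 ± 0.13 for Insrr (adjusted p = 0.565), -0.06 ± 0.09 for Insr (adjusted p = 0.849) and 0.08 ± 0.09 for Igf1r (adjusted p = 0.776), and 0.139% of all genes were called. In the knockout they were -0.01 ± 0.13 (adjusted p = 0.995), 0.09 ± 0.09 (adjusted p = 0.845) and 0.17 ± 0.09 (adjusted p = 0.669) in the same order, and 0.0232% of all genes were called. None of these 6 values had an unadjusted p under 0.05.

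The intervals limit how large a response could have been. For Insr, averaged over both genotypes, bicarbonate gave 1.01 times the level on water, with a 95% interval from 0.923 to 1.11. For Igf1r the factor was 1.09 with an interval from 0.994 to 1.196, and it was above the mean of its water group in 4 of 4 knockout and 2 of 4 wild-type libraries. Insrr was at 0.925 times the water level, with an interval from 0.805 to 1.06. Genes called for this average made up 0.440% of those tested.

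Whether the genotypes answered bicarbonate differently was tested as an interaction, the knockout response minus the wild-type response. It was 0.20 ± 0.19 for Insrr (limma adjusted p = 0.800), 0.15 ± 0.12 for Insr (adjusted p = 0.767) and 0.09 ± 0.13 for Igf1r (adjusted p = 0.869), with 0.0155% of all genes called. So the genotype differences of Insr and Igf1r that passed on bicarbonate and not on water were not shown to differ between the drinks.

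Ratios of 2 receptors in the same library do not depend on how that library was scaled. The ratio of Insrr to Insr was 0.338 to 0.516 in wild type on water and 0.178 to 0.257 in the knockout on water. On bicarbonate it was 0.259 to 0.492 in wild type and 0.183 to 0.206 in the knockout, so the genotypes did not overlap on either drink. The ratio of Insrr to Igf1r was 0.207 to 0.285 against 0.107 to 0.147 on water and 0.137 to 0.249 against 0.108 to 0.125 on bicarbonate, again without overlap.

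The log2 ratio of Insrr to Insr was lower in the knockout by -0.94 on water and -0.89 on bicarbonate, and that of Insrr to Igf1r by -0.89 on water and -0.78 on bicarbonate. Each of these 4 differences had p = 0.0286 in an exact two-sided permutation test, the smallest p that 4 against 4 libraries can give. Adjusted over the 12 ratio tests, each p was 0.0857 and did not pass. Insrr, their numerator, by itself did not overlap between genotypes on either drink, so these tests do not stand apart from that result. The ratio of Insr to Igf1r stayed between 0.505 and 0.684 over all libraries. Its log2 difference between genotypes was 0.04 on water (exact permutation p = 0.514, adjusted p = 0.514) and 0.10 on bicarbonate (exact permutation p = 0.0857, adjusted p = 0.171).

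**Figure D3:**
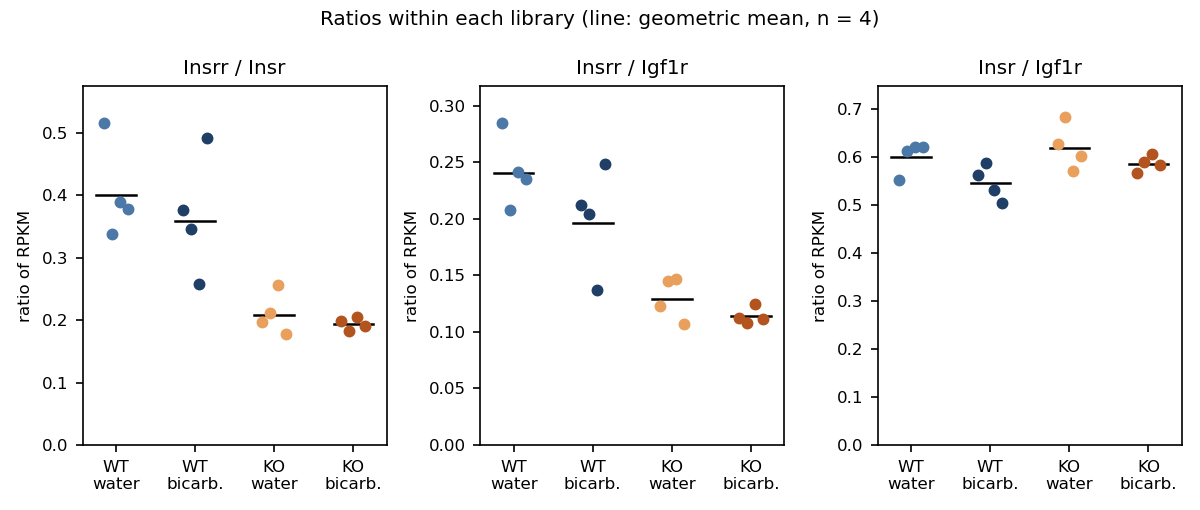
Ratios of RPKM between pairs of receptors within each library (vertical axes, starting at 0), with lines at the geometric mean of 4 libraries. Both ratios with Insrr as numerator are lower in every knockout library than in every wild-type library of the same drink, while the ratio of Insr to Igf1r overlaps between genotypes.

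The shares within the family moved with these ratios. Insrr made up 13.1 ± 1.73% of the summed RPKM of the 3 receptors in wild type on water and 11.4 ± 2.45% on bicarbonate, against 7.44 ± 0.990% and 6.70 ± 0.357% in the knockout (SD, n = 4 each). Igf1r made up more than any other receptor in each group, from 54.2 ± 0.558% in wild type on water to 58.8 ± 0.740% in the knockout on bicarbonate. The summed RPKM of the family was 45.2 ± 2.94 and 45.3 ± 4.41 in wild type and 49.0 ± 3.11 and 53.4 ± 1.96 in the knockout, on water and bicarbonate in turn. These sums and shares were not tested.

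Within groups, libraries with more Insr tended to have more Igf1r. After subtracting each group's mean from log2(RPKM + 0.1), Pearson's r over the 16 libraries was 0.74 (exact permutation within groups p = 0.00812, adjusted p = 0.0244 over 3 pairs). Spearman's rho was 0.68 (exact permutation p = 0.0179, adjusted p = 0.0536). Within the 8 wild-type libraries r was 0.80 and within the 8 knockout libraries 0.61, and r was 0.66 without the 2 libraries farthest from the median of Insr. Without replicate 3 of wild type on bicarbonate, r was 0.62 for Insr and Igf1r, -0.32 for Insrr and Insr and 0.16 for Insrr and Igf1r. For Insrr and Insr, r was -0.47 and rho -0.36 (exact permutation p = 0.192 and 0.269, adjusted p = 0.288 and 0.404), with r = -0.58 without the 2 libraries farthest from the median of Insrr. For Insrr and Igf1r, r was -0.14 and rho -0.01 (exact permutation p = 0.726 and 0.928, adjusted p = 0.726 and 0.928), with r = -0.35 without those 2 libraries. This comparison of pairs was chosen after the values were seen.

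**Figure D4:**
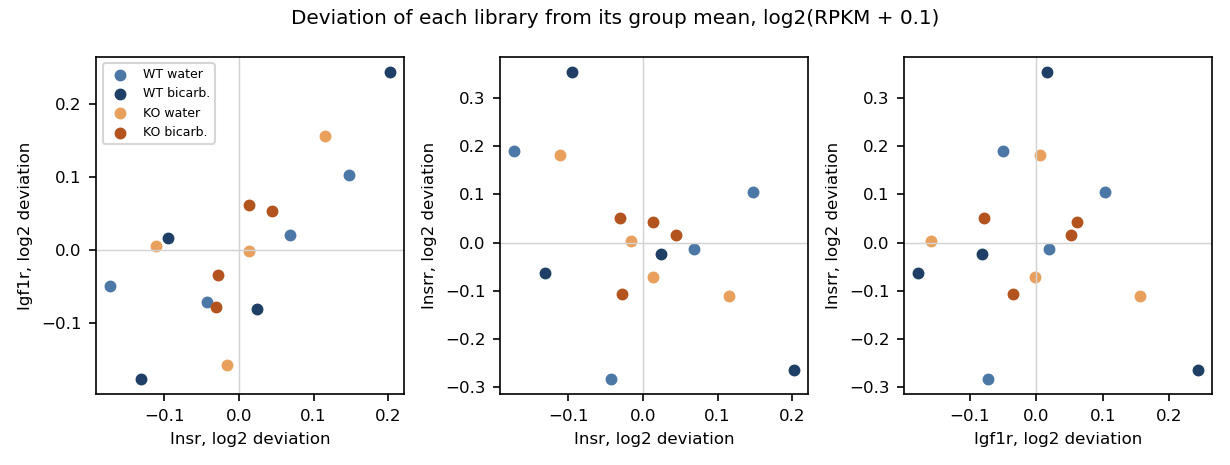
Deviation of each library from its group mean (log2(RPKM + 0.1), both axes) for pairs of receptors, coloured by group. The left panel shows Insr and Igf1r deviating together (r = 0.74 over 16 libraries), and the other panels show Insrr against each of them, at r = -0.47 and -0.14.

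Genes nearest to each receptor in these deviations were ranked among 11565 protein-coding genes with a mean of at least 1 RPKM, as a description with no test. Among the 5 nearest to Insr were Bach1 (r = 0.92), Cpt1a (0.91), Nr1h4 (0.90) and Cat (0.89), and the lowest r belonged to Sbspon (-0.94), Sncg (-0.90) and Gstm2 (-0.90). Nearest to Igf1r were Trak1 (r = 0.93), Slc43a3 (0.90), Ramp2 (0.89), Ogdh (0.87) and Osbpl10 (0.86), with Zfp282 (-0.88), Map2 (-0.87) and Arhgap24 (-0.86) at the other end. Nearest to Insrr were Tbc1d10b (r = 0.85), Naxd (0.85), Sdhc (0.81), Coasy (0.81) and Reps1 (0.81), and the lowest belonged to Dlgap4 (-0.89), Tstd3 (-0.85) and Ube2n (-0.84). No gene was among the nearest 5 of more than 1 receptor. Igf1r lay at the 98.6th percentile of all these genes in likeness to Insr.

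Ligands and their binding proteins came next to the receptors. Ins1 and Ins2, the insulin genes, were not in the table. Igf1, a ligand of Igf1r, was 3.48 ± 1.34, 2.72 ± 0.770, 3.23 ± 0.261 and 3.62 ± 0.986 RPKM in wild type on water, wild type on bicarbonate, knockout on water and knockout on bicarbonate (SD, n = 4 each), with no call. Igf2 was 6.54 ± 4.73, 6.75 ± 4.66, 17.4 ± 23.4 and 30.2 ± 10.9 RPKM in the same order. On bicarbonate the groups did not overlap, as for 22.8% of all genes, with wild type at 1.13 to 12.4 RPKM and the knockout at 17.3 to 41.9 RPKM. On water the knockout libraries ran from 1.82 to 51.3 RPKM and overlapped wild type. The log2 difference of Igf2 between genotypes on bicarbonate was 2.48 ± 0.97 and did not pass (adjusted p = 0.0944). Among 9 genes of binding proteins for IGFs and of Igf2r, which clears IGF2, 1 was called on each drink, 11.1% against 21.9% of all genes on water and 18.4% on bicarbonate. Igfbp3 was lower in the knockout on water (-0.33 ± 0.11, adjusted p = 0.0460), while on bicarbonate it was at 0.33 ± 0.11 (adjusted p = 0.0514) and averaged over both drinks at 0.00. Igfbp7 was higher on bicarbonate (0.28 ± 0.07, adjusted p = 0.0114).

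Of the docking and adaptor proteins that act at the receptors, 3 of 6 tested were called on bicarbonate, 2 higher and 1 lower in the knockout, and 0 on water (2 at an unadjusted p under 0.05 by limma), against 18.4% and 21.9% of all genes. Irs2, a main docking protein of Insr and Igf1r, went from 6.01 ± 0.668 RPKM in wild type to 12.1 ± 2.11 RPKM in the knockout (SD, n = 4 each), higher by 0.98 ± 0.18 in log2 (limma adjusted p = 0.00149). Gab1, a docking protein, was higher by 0.46 ± 0.13 (adjusted p = 0.0210), and Grb2, an adaptor to the RAS pathway, was lower at -0.35 ± 0.10 (adjusted p = 0.0187). The other 3 tested had no call, with Irs1 at 0.29 (adjusted p = 0.105) and Shc1 at 0.04 (adjusted p = 0.782). Furin, a protease that cuts the proreceptors of this family, was higher in the knockout on water, at 59.7 ± 3.29 against 50.3 ± 5.74 RPKM (0.25 ± 0.07, adjusted p = 0.0213).

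Of the genes listed as receptor inhibitors, Cav1 and Nedd4 among them, 1 of 8 tested passed on bicarbonate, 12.5% against 18.4% of all genes. On water 0 passed by limma (1 at an unadjusted p under 0.05), against 21.9% of all genes. The gene called was Ptprf, a receptor tyrosine phosphatase, higher in the knockout on bicarbonate by 0.27 ± 0.09 (limma adjusted p = 0.0455). Grb10 and Grb14, adaptors that bind and block the insulin receptor kinase, were at -0.01 and 0.03 on bicarbonate, and Ptpn1, the phosphatase PTP1B, was at -0.12.

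In the kinase cascade below the receptors, 5 of 20 genes were called on water and 4 on bicarbonate. These shares of 25% and 20% were near the 21.9% and 18.4% of all genes called. Rheb, the GTPase that activates mTOR, went from 33.1 ± 0.823 to 19.7 ± 0.882 RPKM on water and from 31.9 ± 1.86 to 20.1 ± 4.03 RPKM on bicarbonate (SD, n = 4 each). Its log2 differences were -0.74 ± 0.10 (limma adjusted p = 1.17e-04) and -0.68 ± 0.10 (adjusted p = 3.36e-04). Tsc2, which holds Rheb inactive, was higher, at 1.61 ± 0.650 against 4.96 ± 1.84 RPKM on water (1.55 ± 0.41, adjusted p = 0.0131) and 1.83 ± 0.879 against 4.10 ± 1.11 RPKM on bicarbonate (1.23 ± 0.41, adjusted p = 0.0469). Inppl1, the lipid phosphatase SHIP2, was higher by 0.44 ± 0.07 on water (adjusted p = 3.30e-04) and 0.49 ± 0.07 on bicarbonate (adjusted p = 1.93e-04). Gsk3a, a kinase that AKT inhibits, was higher on water (0.27 ± 0.07, adjusted p = 0.00988), Pik3cb, a catalytic subunit of phosphoinositide 3-kinase, was lower on water (-0.28 ± 0.09, adjusted p = 0.0385), and Akt1 was lower on bicarbonate (-0.29 ± 0.10, adjusted p = 0.0483).

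Over the whole pathway list of 51 genes, 47 had values and 46 of them passed the filter. On water 4 were higher and 3 lower in the knockout, which is 15.2% of those tested against 21.9% of all genes, with a median log2 difference of 0.01 against -0.05 over all genes. On bicarbonate 6 were higher and 3 lower, 19.6% against 18.4% of all genes, with a median of 0.08 against -0.02. The share was below that of all genes on water and near it on bicarbonate. Bicarbonate against water gave 0 calls among the 46 in each genotype by limma, with 4 in wild type and 3 in the knockout at an unadjusted p under 0.05. Calls of Inppl1, Rheb, Irs2, Grb2, Gsk3a and of Tsc2 on water held under all 19 alternatives run for each, while those of Igfbp3, Pik3cb, Ptprf, Akt1 and of Tsc2 on bicarbonate were each lost under 9 to 12 of 19, and Furin, Gab1 and Igfbp7 under 5, 2 and 1.

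**Figure D5:**
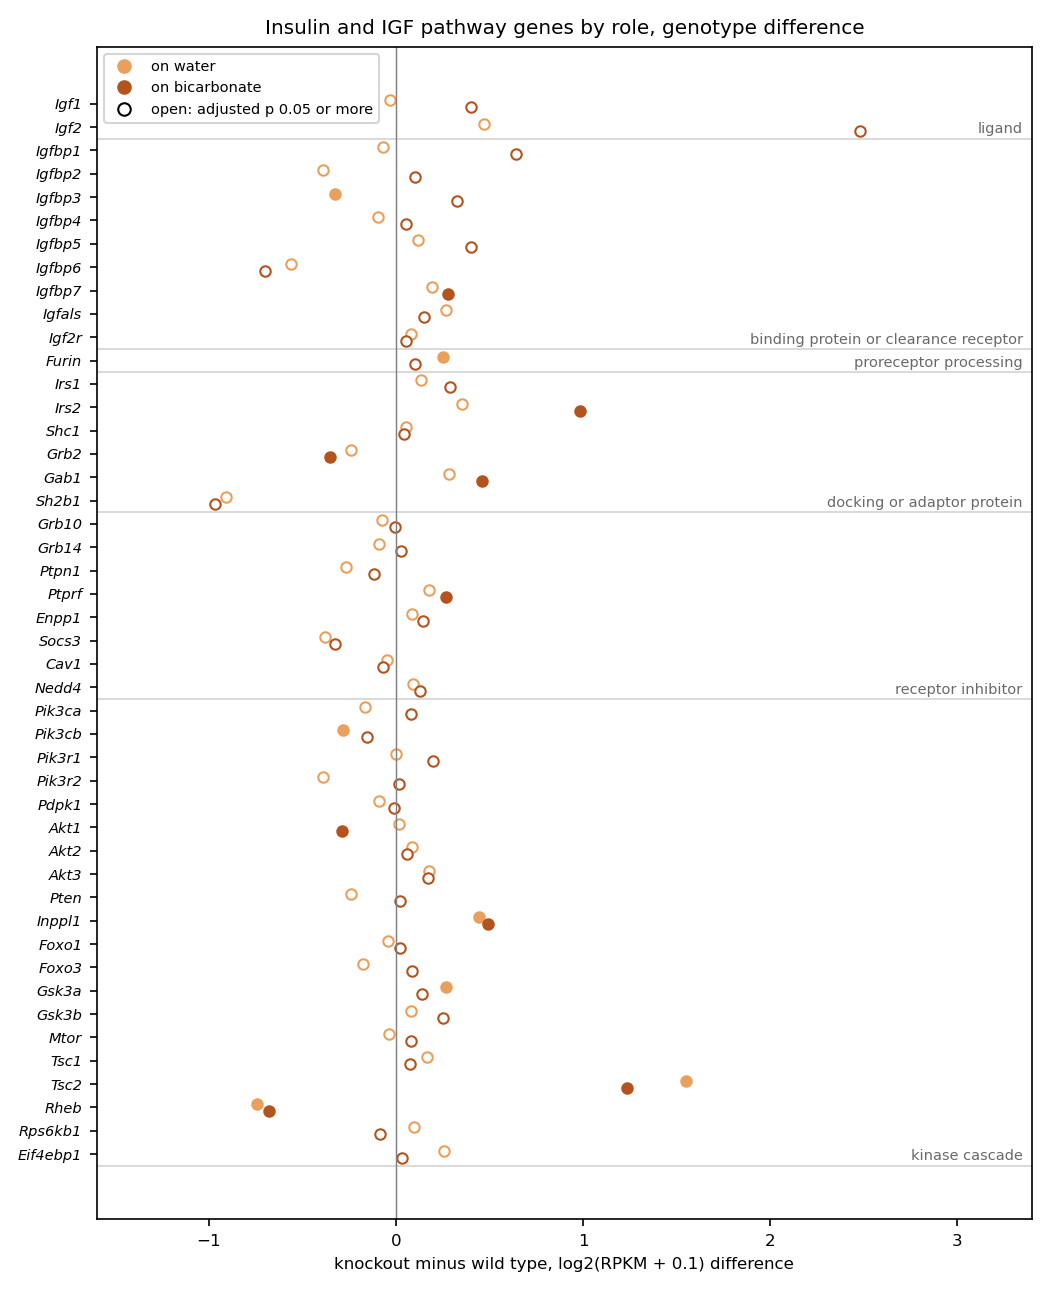
Knockout minus wild-type log2 differences (horizontal axis, log2(RPKM + 0.1)) of the 46 tested pathway genes on water and on bicarbonate, sorted by role, with filled points where the limma adjusted p is under 0.05. Rheb at -0.74 and -0.68 and Inppl1 at 0.44 and 0.49 are filled on both drinks, and Irs2 at 0.98 is filled on bicarbonate.

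Of the markers of type B intercalated cells, known to make Insrr, 4 of 5 were in the table. In the knockout 1 was lower on water, while 2 were lower and 1 higher on bicarbonate. For this and the marker lists below, the share of all genes called was 21.9% on water and 18.4% on bicarbonate. Slc26a4, the chloride-bicarbonate exchanger pendrin, was lower at -0.99 on water (limma adjusted p = 2.53e-05) and -1.07 on bicarbonate (adjusted p = 1.78e-05), and Hmx2 was lower on bicarbonate (-0.79, adjusted p = 0.0188). Slc4a8, a sodium-dependent chloride-bicarbonate exchanger, was higher on bicarbonate (0.58, adjusted p = 0.0402), and Oxgr1 was at 0.26 and 0.00 with no call. Of 19 alternatives run for each, the calls of Slc4a8 and Hmx2 on bicarbonate were lost under 8 and 4. Those of Slc26a4 were lost under 0 on each drink. The 4 genes summed to 50.1 to 66.6 RPKM in wild type and 32.6 to 42.9 RPKM in the knockout. Without Slc26a4 the other 3 summed to 16.3 to 24.0 RPKM in wild type and 15.8 to 24.96 RPKM in the knockout, so the gap in the sum was that of Slc26a4. In slices of whole tissue, fewer cells of a type and less RNA per cell cannot be told apart.

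Markers of type A cells, with 5 of 5 genes, did not overlap in sum between genotypes on water, at 36.9 to 54.3 RPKM in wild type and 54.7 to 89.7 RPKM in the knockout, but did on bicarbonate, at 50.04 to 91.3 and 56.9 to 74.3 RPKM. On water Aqp6 and Adgrf5 were called higher (1.01 and 0.74, limma adjusted p = 0.00434 and 0.0182), and on bicarbonate none was. Aqp6 and Adgrf5 did not overlap between genotypes on water, as for 23.8% of all genes, while Slc4a1, Kit and Dmrt2 each overlapped. The 5 markers shared by both kinds of cell summed to 312 to 385 RPKM in wild type and 294 to 389 RPKM in the knockout, with none called. On bicarbonate alone these sums did not overlap, at 312 to 350 and 294 to 309 RPKM, while on water they did. The part of these markers in the Insrr values was not tested.

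Insr and Igf1r are made by many cell types, so markers of other cells are given beside them. Of 3 immune markers, Cd74 was higher in the knockout on water (0.59, limma adjusted p = 0.00371), while Ptprc and Lyz2 were at -0.24 and -0.51 with no call, and the sums were 61.8 to 103.8 RPKM in wild type and 101.8 to 126 RPKM in the knockout. Of 2 markers of the thick ascending limb, Umod was lower on both drinks (-0.54 and -0.41, adjusted p = 0.00182 and 0.0122) and Slc12a1 was not called (-0.15 and 0.19), with sums of 1028 to 1351 and 858 to 1169 RPKM. Of 2 markers of the distal convoluted tubule, Pvalb was higher on both drinks (0.59 and 0.44, adjusted p = 0.00841 and 0.0454) and Slc12a3 was at 0.01 and 0.00. In each of these lists 1 gene was called, and with both drinks pooled the sums of the genotypes overlapped. On water alone the immune sums did not overlap, at 61.8 to 99.0 RPKM in wild type and 104.5 to 126 RPKM in the knockout. Nor did those of the thick limb, at 1142 to 1347 and 858 to 1043 RPKM. On bicarbonate alone those of the distal convoluted tubule did not overlap, at 204 to 222 and 228 to 234 RPKM. On the other drink, the sums of each of these lists overlapped. Where the sums did not overlap, neither did the called gene by itself, Cd74, Umod or Pvalb, while Ptprc, Lyz2, Slc12a1 and Slc12a3 each overlapped. Among all genes tested, single genes did not overlap for 23.8% on water and 22.8% on bicarbonate.

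Of 6 proximal tubule markers, Slc5a2 was lower in the knockout on both drinks (-0.45 and -0.52, limma adjusted p = 0.00948 and 0.00420). Slc34a1 was lower and Slc22a6 higher on water (-0.34 and 0.28, adjusted p = 0.0149 and 0.0460). Lrp2, Cubn and Kap had no call on either drink. Of 5 principal cell markers, Avpr2 was lower on water (-0.91, adjusted p = 0.0240), and no other was called on either drink. On water the means of Aqp2 and Scnn1g were also lower in the knockout, and those of Aqp3 and Scnn1b higher. The 5 summed to 202.7 to 302.5 RPKM in wild type and 209.8 to 236.2 RPKM in the knockout on water. On bicarbonate they summed to 225 to 364 and 246 to 340 RPKM, so the genotypes overlapped on both drinks.

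Endothelial markers, 4 genes, summed to 129 to 186 RPKM in wild type and 150 to 171 RPKM in the knockout, with no gene called. Those of 3 stromal genes were 37.9 to 56.6 and 34.2 to 65.4 RPKM, also with none called. Among 3 podocyte markers, which summed to 90.6 to 100.1 and 87.2 to 103.9 RPKM, Nphs1 was lower and Podxl higher on bicarbonate (-0.82 and 0.23, adjusted p = 0.00695 and 0.0226). Adipoq, a marker of fat cells, lay between 0.191 and 36.8 RPKM with no call (adjusted p = 0.571 on water and 0.153 on bicarbonate). The part of any of these cells in the values of Insr and Igf1r was not tested.

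On chromosome 3, the annotated span of Pear1, on the reverse strand from 87747890 to 87824306, encloses all of Insrr, but 0 of the 5714 exonic bases of Insrr fall in a Pear1 exon. Pear1 was higher in the knockout by 0.83 ± 0.18 on water (limma adjusted p = 0.00438) and 0.73 ± 0.18 on bicarbonate (adjusted p = 0.0118). Arhgef11 was higher on bicarbonate (0.36 ± 0.08, adjusted p = 0.00525), and Prcc and Hdgf had no call on either drink. No source used here states whether reads were counted by strand.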

How the data were processed

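Kidney RNA of 16 mice was sequenced as 1 library each. Values are RPKM per gene in 1 table deposited by the authors. Per the submitters' processing notes, the tools include edgeR 3.34.0 and Salmon 1.5.2 and the builds GRCm39 and mm10, without the role of any. Annotation, read depth and strand setting are not given in the sources used here, so no counting error can be stated and precision rests on 4 libraries per group.

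Groups and replicate numbers came from the sample titles. All 13430 gene IDs matched a symbol in GENCODE M21 (GRCm38), which also gave positions and sequences. Genes with at least 0.5 RPKM in at least 4 libraries were tested (12943 tested, 487 set aside). Differences in log2(RPKM + 0.1) were tested with limma 3.58.1 (R 4.3.3), using trended and robust variance, in 1 fit of 4 group means over 16 libraries (12 residual degrees of freedom), two-sided, with Benjamini-Hochberg adjustment over all genes tested. The procedure was tested on simulated data. Ratios and correlations were tested by exact permutation in Python 3.11.15.

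The members, the lists and the tests were chosen with earlier results of these data known. Named were the 3 receptors, listed pathway genes past the threshold in a comparison of 2 groups (at most the 10 smallest p), the 5 nearest and 3 farthest genes in deviation from the group mean, and listed neighbours. Some items that this rule names are not reported here. Other genes with values were listed genes chosen after their values were seen. Alternatives changed the pseudocount, filter, scaling, length and GC trend, variance model, weights, libraries and replicate block.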

Additional observations from a re-analysis of the deposited data

Results flagged for a closer look

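One of 24 sets of 4 libraries had a library far from the others, where chance marks about 1 in 20. It was the log2 ratio of Insr to Igf1r in wild type on water, where the gap between replicate 1 and the next library was 0.887 of the whole range, above the critical value of 0.829. That library had a ratio of 0.552, the lowest of its group, and the highest was 0.622.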

How the results depend on the processing

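The genotype averages of Insrr, Insr and Igf1r kept their direction and their call under every alternative run, at -0.64 to -0.53, 0.28 to 0.34 and 0.20 to 0.28 with each library left out. On water, Insr came past the threshold with quantile normalization (0.267), median-of-ratios scaling (0.268) and correction for length and GC (0.293), and lay between 0.176 and 0.283 with libraries left out. Apart from the fit without wild-type replicate 3, Insr on water stayed uncalled under every other alternative. On bicarbonate, Igf1r lost its call without trended and robust variance (0.279), when fitted on its own groups alone (0.279) and after correction for length and GC (0.213), and lay between 0.220 and 0.360 with libraries left out; Insrr lay between -0.58 and -0.375. The cause was not tested.

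Signs turned for values near 0. With libraries left out, bicarbonate minus water was -0.000 to 0.14 for Igf1r in wild type, -0.052 to 0.045 for Insrr in the knockout and -0.018 to 0.04 for Insr over both genotypes, which was -0.006 with array weights. The ratio of Insrr to Insr in wild type was -0.308 to 0.001 after bicarbonate, and that of Insr to Igf1r between genotypes on water -0.004 to 0.083, or -0.006 with medians. Other turned signs were -0.055 for Igfbp7 on water with quantile normalization, and -0.045 for Akt1 on water and -0.017 for Furin on bicarbonate after correction for length and GC. With libraries left out, Akt1 on water was -0.039 to 0.065 and Slc4a8 on water -0.022 to 0.226.

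With a replicate block, no call of a receptor changed: limma gave 0.234 for Insr on water (adjusted p = 0.0804) and 0.279 for Igf1r on bicarbonate (adjusted p = 0.0357). The numbers were not taken as pairs: same-numbered libraries' deviations correlated at -0.1 to 0.1, and 0 to 3 of 4 libraries correlated best with their own number in another group. The ratio of Insrr to Insr on water was -0.94 in an exact sign-flip permutation test of the pairs (adjusted p = 0.3), where the smallest p of 4 pairs is 0.125. Counts of all genes called for bicarbonate in wild type were 18, against 34 with quantile normalization, 10 after that correction, 2 with the replicate block, 5 with only the groups compared and 2 to 82 with a library left out (82 without wild-type bicarbonate replicate 4). For the average over genotypes they were 57, against 36 without trended and robust variance, 29 with the replicate block and 17 to 95 with a library left out. For the interaction they were 2, against 0 with a pseudocount of 0.01, 1 with 1, 0 with the stricter filter, 4 without trended and robust variance, 1 with array weights and 1 to 5 with a library left out. Pathway genes called were 7 on water, 4 with only the groups compared and 4 to 8 with a library left out (4 without wild-type replicate 2 or knockout replicate 3), and on bicarbonate 9, or 5 to 8 with a library left out (5 without wild-type replicate 1 or knockout replicate 2).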
